A study of Mus musculus with 15 samples.

Results

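The cytosolic chaperonin, also called TRiC or CCT, was described through its 8 subunit genes Tcp1, Cct2, Cct3, Cct4, Cct5, Cct6a, Cct7 and Cct8, taken by gene name from 56748 genes in tables of estimated counts and TPM (a level scaled for gene length and within each library). All 8 had a row and passed the filter on low counts, which kept 15619 genes. They were chosen by name with their measured levels in the groups of these same libraries already known. The RNA came from 15 libraries, all of T helper 2 (Th2) cells of the mouse, derived from naive CD4+ cells of the spleens of females. The groups were 4 stimulated cKO, 5 stimulated control, 3 non-stimulated cKO and 3 non-stimulated control libraries. Cells called cKO had the genotype VEC-Cre;Asb2fl/fl, in which the VE-cadherin promoter drives Cre in endothelial cells and blood cell precursors. Control cells were Asb2fl/fl, so that both genotypes carried the floxed alleles. Both had been primed for 3 days on anti-CD3ε with interleukin 2, interleukin 4, anti-CD28 and anti-IFNγ, and then grown for 3 days in interleukins alone. Stimulated cells were given 3 µg/ml of plate-bound anti-CD3ε together with 2 µg/ml of anti-CD28 in solution, for 24 h from day 5. Counted from the start of priming, day 5 would fall within the 3 days of growth in interleukins.

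The chaperonin is a barrel of stacked rings in which every ring holds the same set of different but related subunits. ATP binding and hydrolysis close the barrel over an unfolded protein, and actin and tubulin are its best known clients. Prefoldin, a smaller complex, hands nascent actin and tubulin over to the barrel. In yeast and bovine chaperonin the subunits of Tcp1, Cct2, Cct4 and Cct5 bind ATP more tightly than those of Cct3, Cct6a, Cct7 and Cct8. T cells that are activated through their receptor grow in size and make protein at a higher rate. Neither was measured in these RNA libraries.

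The subunit genes lie apart in the mouse genome, on chromosomes 3, 5, 6, 10, 11, 15, 16 and 17 in the GENCODE annotation of GRCm38. RefSeq promoter windows on GRCm38.p6, each with 250 bases before and 50 bases after an annotated start, were found for 7 of the 8 genes and made up 9 windows; Cct4 was not matched. Shown are the windows of Cct3 and Cct7, which had the largest increases with stimulation of control cells among the genes with 1 window, and that of Tcp1, which had the smallest of these. They span chr3:88296885-88297184, chr6:85451255-85451554 and chr17:12916079-12916378, all on the plus strand, and capitals mark GC boxes (GGGCGG or its reverse complement).
Cct3: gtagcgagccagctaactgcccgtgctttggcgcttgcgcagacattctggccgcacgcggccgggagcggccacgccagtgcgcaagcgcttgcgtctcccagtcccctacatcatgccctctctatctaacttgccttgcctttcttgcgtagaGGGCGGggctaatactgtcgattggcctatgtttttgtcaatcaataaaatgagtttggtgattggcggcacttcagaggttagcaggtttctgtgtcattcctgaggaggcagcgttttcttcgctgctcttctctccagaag
Cct7: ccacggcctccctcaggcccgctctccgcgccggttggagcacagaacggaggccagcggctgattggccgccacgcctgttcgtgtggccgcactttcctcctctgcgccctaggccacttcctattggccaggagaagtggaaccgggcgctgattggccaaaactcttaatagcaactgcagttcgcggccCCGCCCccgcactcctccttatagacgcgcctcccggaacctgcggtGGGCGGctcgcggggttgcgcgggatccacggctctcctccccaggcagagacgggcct
Tcp1: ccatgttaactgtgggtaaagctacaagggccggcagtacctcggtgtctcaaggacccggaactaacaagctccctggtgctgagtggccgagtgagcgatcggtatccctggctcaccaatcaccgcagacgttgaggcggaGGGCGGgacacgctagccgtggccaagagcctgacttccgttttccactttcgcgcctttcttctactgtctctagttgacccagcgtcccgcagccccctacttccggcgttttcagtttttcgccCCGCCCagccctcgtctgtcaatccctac

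Of 6 motifs searched on both strands, the GC box was chosen for the capitals after the counts below were seen. GGGCGG was found in all 7 genes with a window, and in 38.2% of 27025 genes in the table. CCAAT was found in 4 of 7 (Cct3, Cct6a, Cct7 and Tcp1), against 41.1% of all genes. The ETS motif CCGGAAG was found in 3 of 7 (Cct2, Cct8 and Tcp1), against 9.93% of all genes. The heat shock motif GAANNTTC was found in 1 gene, Cct2, against 9.04% of all genes, and its other form TTCNNGAA in Cct5 and Cct6a, against 9.6%. CACGTG, the E-box, was in 0 of 7, against 8.09% of all genes. GC content of the 9 windows was 47.3% to 67.7%, against a median of 52.7% over all 32851 windows, and base composition alone changes how often GC-rich letters occur. These matches describe letters in a window and were not tested for binding.

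The targeted gene was checked first. Asb2, which encodes the substrate-binding subunit of a ubiquitin ligase, had 9.58, 9.59, 9.44 and 9.36 CPM (counts per M, on scaled library sizes) in stimulated cKO cells, against 34.1, 38.0, 32.3, 31.2 and 31.9 CPM in stimulated control cells. The groups did not overlap, and 28.3% of the control mean remained (edgeR quasi-likelihood test, adjusted p = 3.37e-04). In non-stimulated cells it had 12.7, 22.7 and 22.1 CPM in cKO libraries, against 34.7, 25.6 and 49.7 CPM in control libraries, without overlap but not called (adjusted p = 1). There 52.2% of the control mean remained. Which exons are floxed is not given in the sources used here, and reads of exons that remain count towards these levels.

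Libraries held 17.1 to 24.2 M estimated counts, and each member had 1864 to 13494 counts in every library. Stimulated cKO replicate 3 stood apart on the second principal component, at -33.1, and 9.43% of its counts were mitochondrially encoded, against 4.36% to 6.24% in the other 14 libraries. That component held 5.06% of the variance. Non-stimulated control replicate 3, at -23.7, stood apart from its group (5.35 and 4.21) on the same component. Stimulated control replicates 4 and 5 lay nearly as low, at -19.1 and -17.8, against 21, 5.97 and 13.9 in the rest of their group. Markers of CD4 T and Th2 cells were present. Of these 9, Il4, Il5 and Il13 were called higher after stimulation in both genotypes. Cd3e, Cd3d, Cd3g and Trac were called lower in both, and Cd4 and Gata3 were not called. Of 7 myeloid markers 3 were tested (Itgam, Adgre1 and Fcgr3), and all 3 fell with stimulation in both genotypes. With stimulation the 7 summed to 0.807 to 2.92 CPM in cKO and 1.01 to 3.18 CPM in control libraries. Without it they summed to 18.8 to 26.6 CPM in cKO and 16.3 to 28.8 CPM in control libraries. Klrb1c, the 1 tested NK marker, was also called lower, at -2.87 in cKO and -3.26 in control cells on the log2 scale. Beside these marker counts, 26.7% of all tested genes were called higher and 27.1% lower in cKO cells, and 25.4% and 25.2% in control cells. Lyz2, S100a8 and S100a9 had 0 counts in all libraries and Csf1r at most 1. Both NK markers together reached at most 2.03 CPM in stimulated and 18.1 CPM in non-stimulated libraries, the 5 B cell markers at most 6.97 CPM, the CD8 markers at most 28.8 CPM, and the 3 red cell markers were at 0. The part of other cells in the results was not tested; in bulk RNA, fewer cells of a type and less RNA per cell cannot be told apart.

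All 8 chaperonin subunit genes were higher in stimulated than in non-stimulated cells, in both genotypes. The increase was 1.48-fold to 1.97-fold in cKO cells and 1.42-fold to 1.89-fold in control cells. Every stimulated library lay above every non-stimulated library of its genotype for each of the 8 genes on the CPM scale. How many of all tested genes separate in this way was not counted, so the separation cannot be called particular to these genes. Since the genes were chosen with these responses known, the values below describe them and test nothing. All 8 were called higher, beside 26.7% of all tested genes in cKO cells and 25.4% in control cells; 27.1% and 25.2% were called lower, and 53.8% and 50.6% in either direction. The median log2 fold change of the 8 genes was 0.81 in cKO and 0.72 in control cells, and that of all tested genes -0.009 and 0.002.

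**Figure D1:**
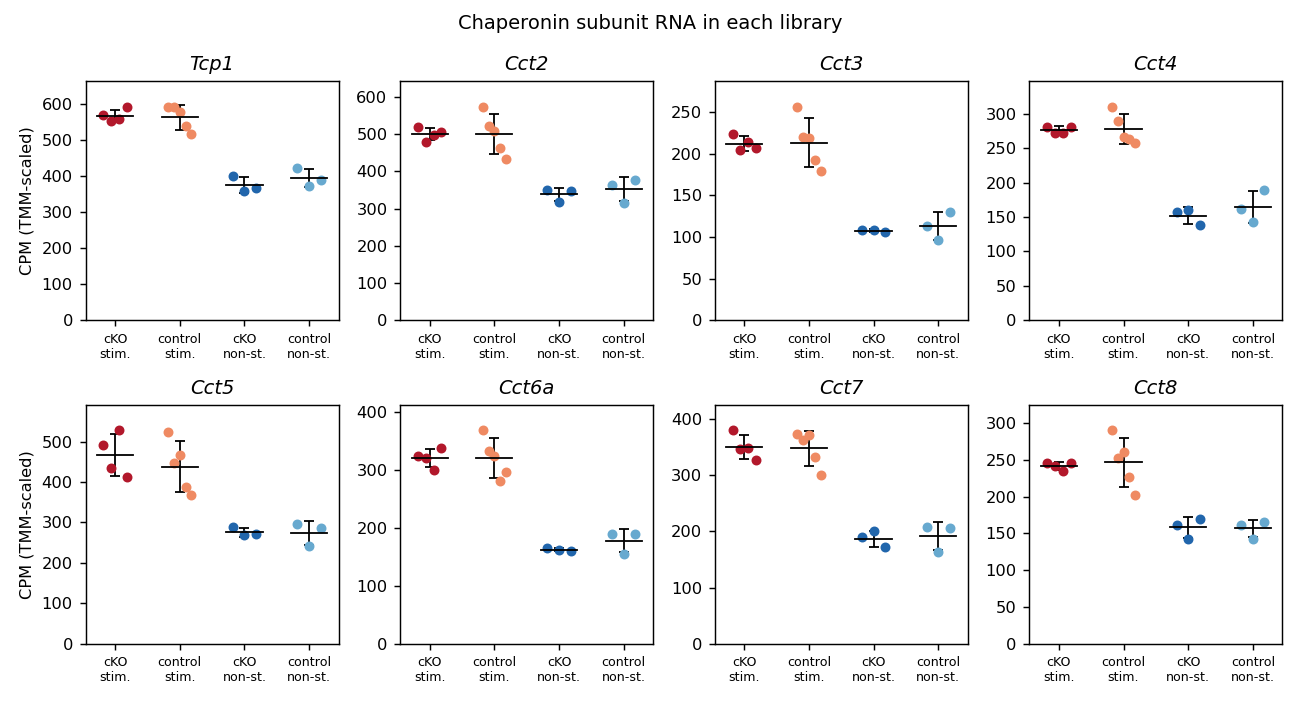
Level of each chaperonin subunit gene in CPM on scaled library sizes (vertical axis, from 0), with 1 point per library, a line at the group mean and bars of 1 SD, for stimulated cKO (n = 4), stimulated control (n = 5), non-stimulated cKO (n = 3) and non-stimulated control cells (n = 3). In all 8 panels the stimulated libraries lie above the non-stimulated ones, and the genotypes overlap within each condition.

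Among the subunits with weaker ATP binding, Cct3, the gamma subunit, had the largest log2 change. Cct3 had 224, 205, 214 and 207 CPM in stimulated cKO libraries, against 109, 108 and 106 CPM in non-stimulated cKO libraries. In control cells it had 257, 221, 219, 193 and 179 CPM with stimulation, against 113, 96.3 and 130 CPM without it. The lowest stimulated value, 179 CPM in control replicate 5, was still above the highest non-stimulated value of 130 CPM. Its log2 fold change was 0.98 ± 0.12 in cKO and 0.92 ± 0.11 in control cells (± SE).

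Cct6a, the zeta subunit, was close behind. Its values were 323, 320, 299 and 337 CPM in stimulated cKO libraries, against 165, 161 and 160 CPM in non-stimulated cKO libraries. Stimulated control libraries had 368, 332, 324, 280 and 297 CPM, against 189, 155 and 189 CPM in non-stimulated control libraries. The groups were far apart relative to their spread, and the log2 fold change was 0.98 ± 0.10 in cKO and 0.85 ± 0.10 in control cells. Psph, a serine synthesis gene that overlaps Cct6a on the other strand, also rose, by 1.29 in cKO and 0.98 in control cells on the log2 scale. The library kit keeps strand, but the sources used here do not say whether the counting did, so reads of such pairs may be shared.

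Cct7, the eta subunit, had 380, 347, 348 and 327 CPM in stimulated cKO libraries, against 190, 200 and 172 CPM in non-stimulated cKO libraries. Control libraries had 373, 362, 371, 333 and 301 CPM with stimulation, against 207, 164 and 206 CPM without it. No values overlapped, and the log2 fold change was 0.91 ± 0.10 in cKO and 0.85 ± 0.10 in control cells. Pradc1, at a mean of 7.4 CPM on the other strand at Cct7, had log2 fold changes of -0.12 in cKO and -0.12 in control cells. For Cct8, the theta subunit, stimulated cKO libraries had 245, 241, 235 and 246 CPM, against 162, 142 and 170 CPM in non-stimulated cKO libraries. Stimulated control libraries spread more widely, with 290, 252, 261, 227 and 202 CPM, against 161, 143 and 166 CPM in non-stimulated control libraries. Cct8 changed by 0.61 ± 0.11 in cKO and 0.65 ± 0.10 in control cells, and it was the 1 member whose log2 change was smaller in cKO than in control cells. Usp16, a deubiquitinase gene on the other strand at Cct8, rose by 0.80 and 0.76 in the same comparisons.

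Of the subunits with tighter ATP binding, Tcp1 and Cct2 had the smallest log2 changes of all members. Cct4 and Cct5 rose more than Cct8, of the weaker set, in both genotypes, and a link to ATP binding was not tested. Tcp1, the alpha subunit and the first of the family to be described, had 568, 553, 558 and 590 CPM in stimulated cKO libraries, against 400, 358 and 366 CPM in non-stimulated cKO libraries. In control cells it had 592, 590, 576, 538 and 515 CPM with stimulation, against 422, 373 and 388 CPM without it. The log2 fold change of Tcp1 was 0.60 ± 0.08 in cKO and 0.51 ± 0.08 in control cells, with no overlap. Mrpl18 and Acat3 overlap Tcp1 on the other strand; Mrpl18 had log2 fold changes of -0.39 in cKO and -0.23 in control cells, and Acat3, at a mean of 0.565 CPM, had -2.71 and -2.83.

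Cct2, the beta subunit, had 519, 480, 497 and 506 CPM in stimulated cKO libraries, against 351, 318 and 346 CPM in non-stimulated cKO libraries. Stimulated control libraries had 574, 522, 508, 463 and 433 CPM, against 363, 315 and 378 CPM in non-stimulated control libraries. The control groups had a lowest stimulated value of 433 CPM and a highest non-stimulated value of 378 CPM, with SDs of 54.4 and 32.6 CPM. The log2 fold change was 0.56 ± 0.10 in cKO and 0.51 ± 0.10 in control cells. Cct4, the delta subunit, had 282, 273, 272 and 282 CPM in stimulated cKO libraries, against 158, 160 and 138 CPM in non-stimulated cKO libraries. With stimulation, control libraries had 311, 290, 267, 264 and 258 CPM, against 162, 143 and 189 CPM without it. Its log2 fold change was 0.87 ± 0.10 in cKO and 0.76 ± 0.10 in control cells, the largest of these 4 subunits.

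Cct5, the epsilon subunit, had the largest SD between stimulated libraries of each genotype on the CPM scale, which did not hold on TPM in cKO cells. It had 492, 436, 528 and 413 CPM in stimulated cKO libraries, against 289, 269 and 271 CPM in non-stimulated cKO libraries. Control libraries had 523, 448, 466, 387 and 367 CPM with stimulation, against 296, 241 and 287 CPM without it. The groups still did not overlap, and the log2 fold change was 0.76 ± 0.12 in cKO and 0.67 ± 0.12 in control cells.

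Per length, the subunits fell into a high and a low set in all 4 groups. Tcp1, Cct2 and Cct5 were the highest, at means of 288 to 299 TPM in stimulated cKO, 282 to 308 TPM in stimulated control, 180 to 214 TPM in non-stimulated cKO and 161 to 193 TPM in non-stimulated control cells. Next came Cct7, at 177 ± 31.7, 183 ± 11.7, 99.9 ± 7.28 and 91.0 ± 8.08 TPM in the same order of groups (SD), and the ranges of the high set and Cct7 did not overlap in any group. Cct3 was the lowest throughout, at 114 ± 20.2, 118 ± 12.6, 60.4 ± 0.932 and 57.0 ± 6.35 TPM. Neighbours within the high set overlapped in range in all groups, except Cct2 and Cct5 in both non-stimulated groups. Cct7 and Cct4 overlapped in all 4 groups.

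Cct6a and Cct8 changed places in this order. Cct6a was above Cct8 in 4 of 4 stimulated cKO and 4 of 5 stimulated control libraries, whereas Cct8 was above Cct6a in 3 of 3 libraries of each non-stimulated group. Their ranges overlapped in every group but non-stimulated cKO. The ratio of Cct6a to Tcp1 in TPM was 0.448 ± 0.00399 in stimulated cKO and 0.449 ± 0.0301 in stimulated control cells, against 0.337 ± 0.0256 in non-stimulated cKO and 0.361 ± 0.0259 in non-stimulated control cells. Likewise the ratio of Cct3 to Cct2 was 0.397 ± 0.013 and 0.396 ± 0.0176 in stimulated cKO and control cells, against 0.294 ± 0.0167 and 0.300 ± 0.0196 in the non-stimulated cells of each. The highest subunit exceeded the lowest by 2.57 to 2.90 times in stimulated cKO and 2.36 to 2.84 times in stimulated control libraries, against 3.2 to 3.8 times in non-stimulated cKO and 3.1 to 3.76 times in non-stimulated control libraries. The levels of the subunits were thus closer to each other in each stimulated library than in any non-stimulated one, as a description of the chosen genes.

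**Figure D2:**
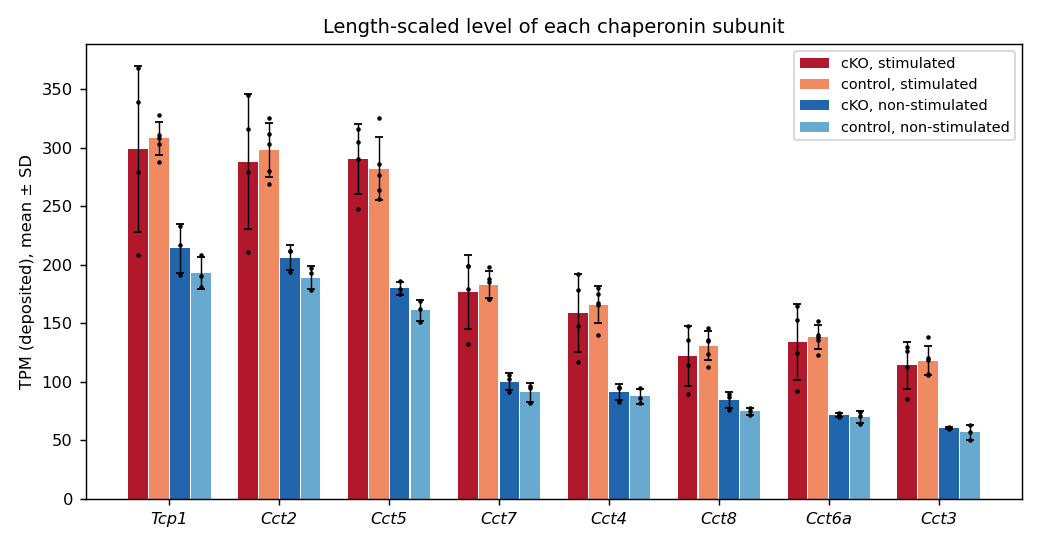
Deposited TPM of each subunit gene (vertical axis, from 0) as bars of the group mean with SD and 1 dot per library, for the 4 groups in the legend. Tcp1, Cct2 and Cct5 form a high set and Cct3 is lowest, and the long bars of stimulated cKO cells include replicate 3, which is the lowest dot of its group for every gene.

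Summed over the 8 genes, the level was 1580 ± 299 TPM in stimulated cKO, 1620 ± 112 TPM in stimulated control, 1010 ± 40.7 TPM in non-stimulated cKO and 924 ± 47.4 TPM in non-stimulated control cells. Stimulated cKO replicate 3 was low, at 1182 TPM, against 1526, 1764 and 1851 TPM in the other stimulated cKO libraries. On the scaled CPM its sum, 2951, lay among 3031, 2856 and 2908 of the others, and the part of its high mitochondrial share in the TPM values was not tested. With this library included, Tcp1, Cct2 and Cct8 overlapped between stimulated and non-stimulated cKO cells on the TPM scale, with 208, 211 and 89.5 TPM in that library.

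Within a group, the subunit genes mostly moved together. After removal of group means, the Pearson correlation of log2 CPM over 15 libraries was 0.47 (Tcp1 with Cct4) to 0.944 (Cct2 with Cct8) among the 28 pairs, with a median of 0.742. These points share library and scaling, so the values are a description. In stimulated control cells, all 8 genes were above their group mean in replicates 1 and 2, and none was in replicates 4 and 5, with CPM sums of 3289, 3016, 2683 and 2552. Replicates 4 and 5 were also the lowest of their group on the second principal component, and the part of this was not tested. In non-stimulated control replicate 2 none of the 8 was above its group mean.

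Among 9440 genes with at least 5 CPM, those most like the mean of the 8 over the 15 libraries were C1qbp (Pearson r = 0.994), which encodes a mitochondrial matrix protein, Ruvbl1 (0.993), a subunit gene of an AAA+ ATPase complex, Gspt1 (0.993), a translation termination factor gene, and the nucleolar protein genes Nop16 (0.992) and Dkc1 (0.991). With group means removed they were Gspt1 (0.958), the mitochondrial ribosome gene Mrpl19 (0.947), Nob1 (0.94), needed for small ribosomal subunits, C1qbp (0.94) and Uba2 (0.933), a SUMO-activating enzyme gene. All were picked as the highest of many, and the correlations carry no test.

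Close relatives of the members were hardly expressed. Cct6b, a testis form of the zeta subunit in mice, had 3 to 15 counts per library and was not tested. Cct8l1 had 0 counts in all 15 libraries, which allows up to 0.0102 CPM over their summed counts. The pseudogenes Tcp1-ps1 and Cct3-ps1 had at most 0 and 1 count.

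The genotypes were compared next, as the question the study set. Asb2 in cKO cells was at 28.3% of the control mean with stimulation and 52.2% without it. No chaperonin gene was called between cKO and control cells in either condition, and the genotypes overlapped for all 8 genes. The share of all tested genes with such overlap was not counted, so the overlap cannot be called particular to these genes. In stimulated cells the means were 567 ± 16.2 CPM in cKO and 562 ± 34.1 CPM in control cells for Tcp1, and 212 ± 8.61 CPM in cKO and 214 ± 30.1 CPM in control cells for Cct3. The log2 fold changes of the 8 genes ran from -0.03 (Cct8) to 0.09 (Cct5), each with an edgeR adjusted p of 1. Cct5 averaged 467 ± 52.6 CPM in stimulated cKO and 438 ± 63.0 CPM in stimulated control cells, and its 95% interval ran from -0.13 to 0.32 on the log2 scale, the highest upper bound of the 8. Of all tested genes, 0.0064% were called, which was Asb2 alone, and 1.81% had an unadjusted p under 0.05, none of them a member.

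In non-stimulated cells the log2 fold changes ran from -0.13 (Cct6a) to 0.01 (Cct8), again with an edgeR adjusted p of 1. Cct6a averaged 162 ± 2.59 CPM in cKO and 177 ± 19.5 CPM in control cells, with a 95% interval of -0.35 to 0.09. Cct4 averaged 152 ± 12.4 CPM in cKO and 165 ± 23.1 CPM in control cells, with an interval of -0.34 to 0.11. Of all tested genes 0% were called; 402 had an unadjusted p under 0.05, and DESeq2 called 1 higher and 3 lower, none of them a member. The median of the 8 genes was -0.07 in this comparison, but 0.13 on the log2 of TPM plus 0.1, where the median of all genes was 0.15. Leaving out non-stimulated control replicate 2, in which the genes were low, moved the median to -0.14, and leaving out replicate 3 moved it to 0.004.

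The stimulation responses of the genotypes were also set against each other, as the cKO response minus the control response. The difference ran from -0.04 (Cct8; 95% interval -0.35 to 0.27) to 0.13 (Cct6a; -0.16 to 0.41) on the log2 scale, and edgeR's adjusted p was 0.997 to 1. It was above 0 for the other 7 genes, but below 0 for all 8 on the log2 of TPM plus 0.1, with a median of -0.18 beside -0.21 for all genes. Of all tested genes 0% were called; 605 had an unadjusted p under 0.05, and DESeq2 called 2, none of them a member. Differences smaller than these intervals could not be seen with 3 to 5 libraries a group, so that the genotypes are not shown to be alike.

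**Figure D3:**
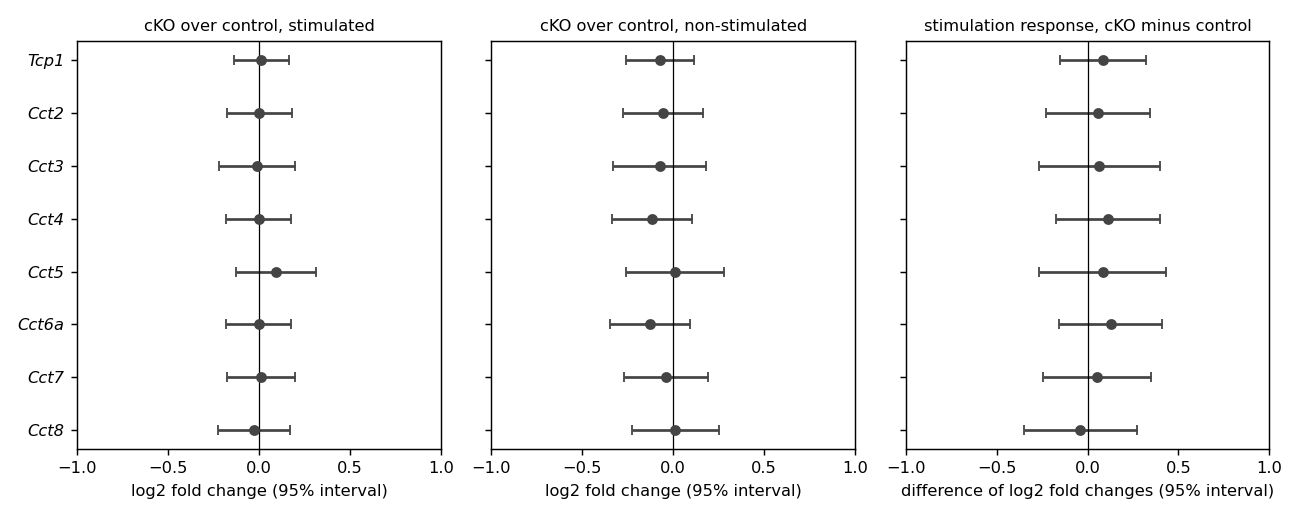
Log2 fold change of each subunit gene with its 95% interval (horizontal axes) for cKO over control in stimulated and in non-stimulated cells, and the difference of the stimulation responses, cKO minus control. All 24 intervals include 0, and they reach at most -0.35 and 0.43.

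The partners that deliver clients to the chaperonin were split. Of 6 prefoldin subunit genes 3 rose and none fell in each genotype, with a median log2 fold change of 0.33 in cKO and 0.32 in control cells. Calls over all tested genes were 26.7% higher in cKO and 25.4% in control cells, and 27.1% and 25.2% lower. Pfdn2 reached 28.6 ± 3.9 CPM in stimulated cKO, against 14.9 ± 0.917 CPM in non-stimulated cKO cells (0.94 ± 0.15, edgeR adjusted p = 3.64e-05), and changed by 0.93 ± 0.14 in control cells (adjusted p = 2.78e-05). Pfdn4 rose by 1.25 ± 0.29 in cKO and 0.83 ± 0.28 in control cells, and Vbp1, the gene of prefoldin subunit 3, by 0.43 ± 0.09 and 0.25 ± 0.09. The call of Pfdn4 in control cells was lost without a filter on low counts (edgeR adjusted p = 0.0522) and without non-stimulated control replicate 2 (0.0751) or 3 (0.0874). That of Vbp1 in control cells was lost without non-stimulated control replicate 1 (edgeR adjusted p = 0.0508) or 2 (0.0997), and in cKO cells on the log2 of TPM plus 0.1 (limma adjusted p = 0.0901), so that Pfdn2 alone of the 3 kept its call under every alternative in both genotypes. Pfdn1 (0.05 in cKO and 0.27 in control cells), Pfdn5 (-0.07 and -0.15) and Pfdn6 (0.22 and 0.37) were not called, although Pfdn6 in control cells was called higher on the log2 of TPM plus 0.1 (0.56, limma adjusted p = 0.0163). Of 3 phosducin-like cofactor genes, whose proteins bind the chaperonin and modulate it, Pdcl3 rose by 0.74 ± 0.16 in cKO and 0.58 ± 0.16 in control cells and Txndc9 by 0.26 ± 0.10 and 0.29 ± 0.09; Pdcl (0.28 and 0.20) was not called, but lay near the threshold in cKO cells, with an adjusted p of 0.0514 by edgeR and 0.0456 by DESeq2. The call of Txndc9 in cKO cells was lost without stimulated cKO replicate 3 (edgeR adjusted p = 0.0845), without non-stimulated cKO replicate 1 (0.0788) or 2 (0.125), with only the groups compared (0.0623) and on the log2 of TPM plus 0.1 (limma adjusted p = 0.154).

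Among the main clients, neither tested actin gene was called by edgeR over all libraries, and 8 of the 10 called tubulin genes fell. Of 6 actin genes 2 were tested: Actb averaged 6720 ± 548 CPM in stimulated and 7990 ± 1310 CPM in non-stimulated cKO cells, and 6600 ± 707 CPM in stimulated and 7830 ± 727 CPM in non-stimulated control cells. The log2 fold change of Actb was -0.25 in cKO and -0.24 in control cells (adjusted p = 0.106 and 0.104), and that of Actg1 -0.22 and -0.25. Actb in cKO cells was called lower without non-stimulated cKO replicate 2 (-0.35, edgeR adjusted p = 0.0459), and Actg1 in control cells without non-stimulated control replicate 1 (-0.33, 0.049) and with only the groups compared (-0.26, 0.0476). Of 16 tested tubulin genes, from 17, 8 fell and 2 rose in each genotype, with a median of -0.55 in cKO and -0.52 in control cells. The shares of all tested genes were 27.1% lower and 26.7% higher in cKO and 25.2% and 25.4% in control cells. Tuba4a, an alpha tubulin gene, fell to 51.9 ± 11.1 CPM in stimulated cKO, against 158 ± 17.6 CPM in non-stimulated cKO cells, with a log2 fold change of -1.61 ± 0.17 (-1.35 ± 0.16 in control cells). Tube1, the gene of epsilon tubulin of centrioles, changed by -1.87 ± 0.26 in cKO and -1.73 ± 0.24 in control cells, Tubb4a by -1.30 ± 0.22 and -1.47 ± 0.20, and Tuba8 by -1.40 ± 0.24 and -1.27 ± 0.23.

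The most abundant tubulin genes, chosen after their values were seen, were Tubb5 and Tuba1b. Tubb5 fell to 1160 ± 287 CPM in stimulated cKO, against 1990 ± 224 CPM in non-stimulated cKO cells (-0.78 ± 0.17), and by 0.84 ± 0.16 on the log2 scale in control cells, with no overlap in either. Tuba1b was not called, at -0.35 in cKO and -0.40 in control cells. The tubulin genes that rose, also named after their values were seen, were Tubb3, at under 1 CPM, and Tubg1, the gene of gamma tubulin of microtubule-organizing centres (0.40 ± 0.14 in cKO and 0.42 ± 0.14 in control cells). Actin and tubulin genes include near-identical copies between which reads may be split, so single copies are uncertain.

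**Figure D4:**
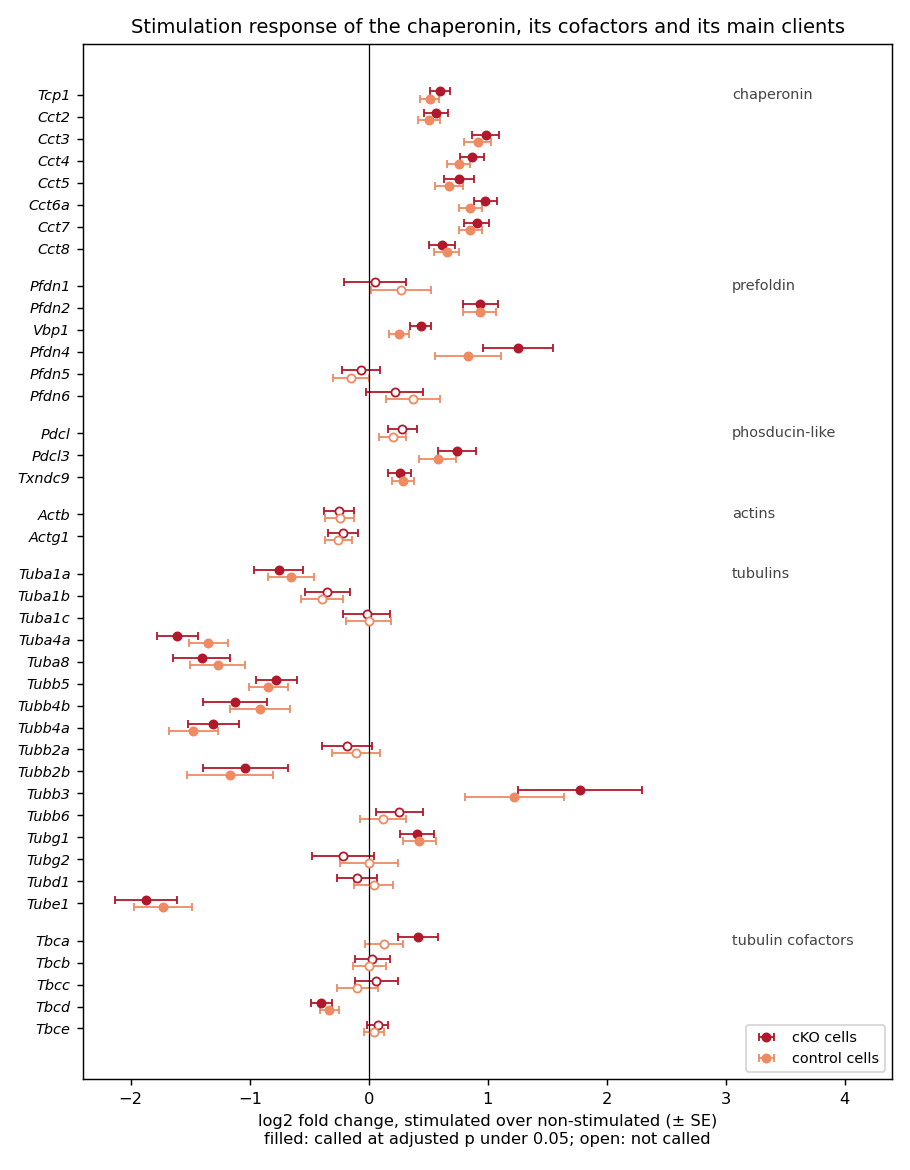
Log2 fold change with SE (horizontal axis) of stimulated over non-stimulated cells in cKO and control cells for the chaperonin genes, prefoldin, phosducin-like cofactors, actins, tubulins and tubulin cofactors; filled points were called at an adjusted p under 0.05. All 8 chaperonin genes lie to the right of 0, while 8 of 16 tubulin genes were called to the left of it.

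Tubulin folding cofactors, which act after the chaperonin, had 1 of 5 higher and 1 lower in cKO cells and none higher and 1 lower in control cells. Of all tested genes, 26.7% were called higher and 27.1% lower in cKO cells, and 25.4% and 25.2% in control cells. Tbcd fell, with log2 fold changes of -0.40 ± 0.09 in cKO and -0.33 ± 0.08 in control cells, but in control cells the call was lost on the log2 of TPM plus 0.1 (-0.33, limma adjusted p = 0.162). Tbca was called in cKO cells at 0.42 ± 0.17, and was at an uncalled 0.13 ± 0.16 in control cells. Without stimulated cKO replicate 3 it was at 0.19 in cKO cells and not called (edgeR adjusted p = 0.182). The call was also lost without stimulated cKO replicate 1 (0.0594), without any 1 of the 3 non-stimulated cKO libraries (0.0559 to 0.126), with only the groups compared (0.101) and on the log2 of TPM plus 0.1 (limma adjusted p = 0.0929). Tbcc (0.06 in cKO and -0.10 in control cells) and Tbce (0.08 and 0.05) were not called. Among 15 other reported clients 4 rose and 2 fell in each genotype, with a median of -0.02 in cKO and -0.05 in control cells, a count of rises near the 26.7% and 25.4% of all tested genes called higher. Ppp2r2a, a regulatory subunit gene of protein phosphatase 2A, rose by 0.93 ± 0.10 in cKO and 0.72 ± 0.10 in control cells, and Gnb2, a G protein beta subunit gene, changed by -0.53 ± 0.14 and -0.54 ± 0.13, the call in control cells being lost on the log2 of TPM plus 0.1 (-0.28, limma adjusted p = 0.149). Bbs2, of the ciliary BBSome, rose by 0.62 ± 0.15 and 0.78 ± 0.15, but on the log2 of TPM plus 0.1 its value was -0.04 in cKO cells, and its call was lost in control cells (0.72, limma adjusted p = 0.0655). Vhl, the tumour suppressor that targets hypoxia-inducible factors, was at an uncalled -0.27 ± 0.12 in cKO cells and changed by -0.42 ± 0.11 in control cells, where the call was lost on the log2 of TPM plus 0.1 (-0.27, limma adjusted p = 0.306).

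Other chaperone systems also held genes that rose. Beside them, 26.7% of all tested genes were called higher in cKO and 25.4% in control cells, and 27.1% and 25.2% lower. Of 9 genes of the mitochondrial chaperonin and its partners 8 rose and none fell in each genotype, with a median log2 fold change of 1.09 in cKO and 0.91 in control cells. Hspd1, which encodes the mitochondrial chaperonin HSP60, averaged 450 ± 26.2 CPM in stimulated and 173 ± 20.3 CPM in non-stimulated cKO cells (1.38 ± 0.15), and rose by 1.49 ± 0.14 in control cells. Its partner Hspe1 rose by 1.25 ± 0.13 and 1.13 ± 0.13, and the protease genes Lonp1 by 1.42 ± 0.14 and 1.36 ± 0.14 and Clpp by 1.09 ± 0.16 and 0.91 ± 0.15. Of 18 genes of the cytosolic HSP70 and HSP90 system 10 rose and 2 fell in each genotype, with medians of 0.46 in cKO and 0.43 in control cells. Hsph1, a nucleotide exchange factor gene, rose by 1.37 ± 0.14 and 1.33 ± 0.14, whereas Hspa8, the constitutive HSP70 gene, fell, with log2 fold changes of -0.68 ± 0.12 and -0.72 ± 0.11. Hspa1a and Hspa1b rose at low levels in both genotypes, by 3.61 and 2.93 in control cells. Their non-stimulated means were 0.355 and 0.695 CPM in cKO and 0.455 and 0.849 CPM in control cells, so these changes rest on low reference levels. Both are near-identical copies, so their split is uncertain.

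Regulators linked to chaperone genes changed as well, beside 53.8% of all tested genes called in either direction in cKO and 50.6% in control cells. Of 4, Myc rose by 1.78 ± 0.22 in cKO and 1.53 ± 0.21 in control cells, Hsf2 by 1.57 ± 0.14 and 1.44 ± 0.14, and Hsf1, the main heat shock factor gene, by 0.56 ± 0.11 and 0.47 ± 0.10; Max, the partner of Myc, changed by -0.37 ± 0.07 and -0.48 ± 0.07. On the log2 of TPM plus 0.1 the calls were lost for Max in cKO (limma adjusted p = 0.0877) and control cells (0.143) and for Hsf1 in cKO cells (0.0921). Of 15 cell cycle genes 8 were lower in cKO and 9 in control cells, beside 27.1% and 25.2% of all tested genes, none was higher, and 7 and 6 were not called. Mki67 averaged 1480 ± 108 CPM in stimulated and 2720 ± 104 CPM in non-stimulated cKO cells, Birc5 changed by -0.99 ± 0.13 in cKO and -0.92 ± 0.12 in control cells, Top2a by -0.67 ± 0.12 and -0.66 ± 0.11, and Mcm6 by -0.53 ± 0.09 and -0.65 ± 0.08. None of the genes in these lists was called between genotypes or in the difference of responses.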

How the data were processed

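Per the labels' protocols, libraries were made with a stranded total RNA kit after ribosomal RNA depletion. The submitters' processing notes list STAR 2.7.9a, cutadapt 3.4 and Salmon 1.10.1, with genome build GRCm39, and give no roles. The authors deposited estimated counts, not scaled between libraries, and TPM, scaled by the authors for length and within each library. Estimated counts were rounded and fitted in R 4.3.3 with edgeR 4.0.16 (filterByExpr, trimmed mean of M-values, robust quasi-likelihood, 1 mean per group, all 15 libraries). Tests were two-sided with Benjamini-Hochberg adjustment over 15619 genes, and calls were made at an adjusted p under 0.05. The fit was tested on simulated data. CPM is on scaled library sizes; values are mean ± SD over libraries (n = 4 stimulated cKO, 5 stimulated control, 3 non-stimulated cKO and 3 non-stimulated control), and fold changes carry SE. Nothing in the labels ties each library to its own animal, and the p-values therefore cover the spread among these libraries alone. Limits from counts cover counting error only.

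The members and lists were chosen with earlier results of these data known. Genes named were all members, Asb2, relatives, prefoldin and phosducin-like genes, the 4 members of each other list with the smallest p in control cells, and the 5 genes most like the members by each measure; others are said to be chosen later, apart from markers and overlapping genes. Motifs were searched in RefSeq promoter windows of GRCm38.p6, and overlaps were taken from GENCODE on GRCm38, since no GRCm39 annotation was used here. The motif shown in capitals was picked after all 6 motifs had been counted. Alternatives were DESeq2 1.42.0, relative log expression scaling, no filter, only the groups compared, replicate blocks, limma 3.58.1 on log2 of TPM plus 0.1 or 1, and leaving out libraries.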

Additional observations from a re-analysis of the deposited data

How the results depend on the processing

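All 8 chaperonin genes stayed called higher with stimulation, and none between genotypes or in the difference of responses, under every alternative that gave a value. Their log2 fold changes lay between 0.451 and 1.019 in cKO and between 0.435 and 1.049 in control cells. The alternative without stimulated cKO replicate 3 and non-stimulated control replicate 3 was chosen after seeing the data and gave medians of 0.794 in cKO and 0.793 in control cells. On the log2 of TPM plus 0.1, 2583 genes were higher and 3443 lower in cKO cells, and 3754 higher and 2108 lower in control cells.

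Same-numbered libraries showed at most weak common deviations, with correlations from -0.205 to 0.177 over all comparisons. In cKO stimulation all 3 numbers correlated best with their own, at 0.0802 to 0.11, and whether these libraries were paired cannot be told from such values. With the replicate block the member medians were 0.849 in cKO and 0.794 in control cells, and with a replicate block within genotype 0.835 and 0.812; the blocks also gave calls in control cells to Pfdn6 (0.527 and 0.602) and, within genotype, Pfdn1 (0.468), in cKO cells to Pdcl (0.322 and 0.312), and within genotype took those of Vbp1 (0.237) and Txndc9 (0.25) in control cells. The block within genotype called 0.0064% of genes in the difference of responses. Genes called over all tested were 29.5% in cKO and 27.4% in control stimulation with no filter on low counts, which tests more genes. Between genotypes without stimulation they were 0.0256% with DESeq2, 0.00356% with no filter, 0.0192% on log2 of TPM plus 1, 0.00628% without both libraries that stand apart, and 0 to 0.00627% on leaving out 1 library each, the highest being without non-stimulated control replicate 3. With stimulation they were 0.032% with DESeq2 and 0.00356% with no filter, and in the difference of responses 0.0128% both with DESeq2 and on log2 of TPM plus 1. Bbs2 in cKO cells reversed to -0.041 and -0.06 on log2 of TPM plus 0.1 and plus 1; the cause was not tested. Of the other named genes' values, 45 lost and 15 gained a call under an alternative. Each member had at least 1864 counts in every library.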
